A study of Mus musculus with 2 samples.

Results

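The clustered protocadherin genes are the Pcdha, Pcdhb and Pcdhg genes, which lie one after the other on mouse chromosome 18. Members were taken as the protein-coding genes of GENCODE M21 on that chromosome whose symbols start with Pcdha, Pcdhb or Pcdhg, which gave 57 of the 21938 protein-coding genes on chromosomes 1 to 19, X and Y. They comprised 14 Pcdha, 22 Pcdhb and 21 Pcdhg genes, all on the plus strand of chr18:36930184-37841873 (mm10), a span of 911.69 kb. The symbol Pcdha11 was carried by 2 gene IDs, which were both kept. Pcdhgb8 is annotated as a polymorphic pseudogene and was therefore not a member.

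DNase-seq, which maps the places where the nuclease DNase I can cut chromatin, was carried out on whole urinary bladder tissue. The animals were female adult B6CASTF1/J mice, the first-generation cross of C57BL/6 and CAST, aged 18 to 20 months. The series holds 1 group of 2 libraries, biological replicates 1 and 2, from 2 biosamples under 1 donor record. The labels do not say how many animals that record covers, so the spread between the libraries may be technical, and with 1 group no test between groups was possible. In bulk tissue, fewer cells of a type and less signal per cell cannot be told apart.

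Clustered protocadherins are cell-surface adhesion proteins of the cadherin superfamily, best known from neurons. There each cell uses its own small choice of the genes, and the resulting surface code lets a cell tell its own branches from those of other cells. Each Pcdha and Pcdhg gene has a variable first exon with a promoter of its own, which is spliced to constant exons shared by its family, whereas each Pcdhb protein is encoded by a single exon. The insulator protein CTCF, with cohesin, binds at many of these promoters, and in Pcdha genes also inside the variable exon, and links them to distant enhancers.

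A promoter was the 1 kb on either side of the start site of the transcript with the longest coding sequence. Peak signal is the value the authors deposited for each peak, summed where a promoter held several peaks. The longer peak list had 84591 entries for replicate 1 and 112174 for replicate 2, with median signals of 0.819 and 0.760. Every signal was a whole multiple of 1 step, 0.00853 in replicate 1 and 0.00884 in replicate 2. The counting intervals below take 1 step as 1 count and cover counting error only. Promoters of bladder markers carried peaks: 6 of 6 urothelial genes in replicate 1 and 5 of 6 in replicate 2, 5 and 4 of 5 smooth muscle genes, and 4 of 4 fibroblast genes in both. Of 3 endothelial genes 2 had one in each, and of 3 immune genes 1 and 2 did. The shares of all genes were 60.9% and 63.1%. The urothelial gene Upk2, which encodes a plaque protein of the bladder surface, had 6.11 and 6.99.

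Few member promoters were accessible by this measure, and the libraries differed widely in how many. In replicate 1, 6 of 57 members (10.5%) had a promoter peak, against 60.9% of all protein-coding genes. In replicate 2, 23 members (40.4%) had one, against 63.1% of all genes. The count of members with a peak in both libraries was 5 (8.77%), against 59.7% of all genes. Replicate 2 alone gave a peak at 18 members (31.6%), whereas 3.41% of all genes had a peak in replicate 2 alone. Pcdhac2 was the 1 member with a peak in replicate 1 alone (1.75%), a pattern that 1.19% of all genes showed. The members thus stood below the share of all genes in both libraries, and far above it in the share called in replicate 2 alone. A gene called in replicate 1 cannot be called in replicate 2 alone, so the low share of members in replicate 1 widens that contrast.

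**Figure D1:**
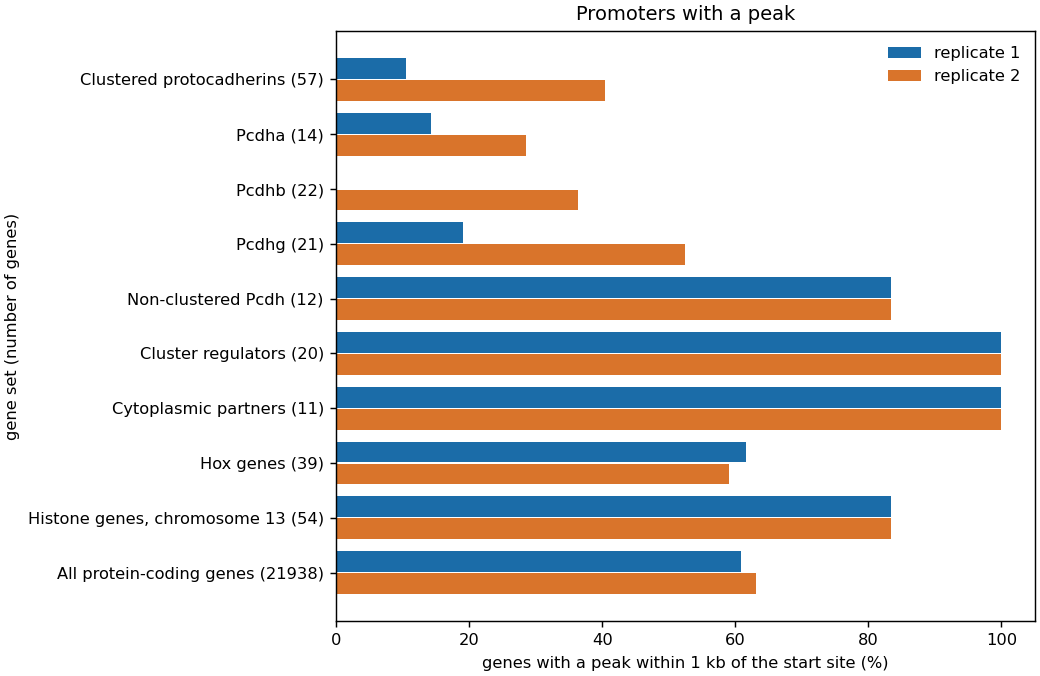
Share of genes (%) with a peak within 1 kb of the start site, for the clustered protocadherins and their 3 families, for comparison lists and for all protein-coding genes; bars give replicates 1 and 2, with gene numbers in parentheses. The clustered genes reach 10.5% and 40.4%, against 60.9% and 63.1% of all genes, and no Pcdhb gene has a peak in replicate 1.

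The other deposited tracks come from the same cuts, so that they are no separate evidence of the split. Each member promoter with a footprint held at least 1 inside a peak of that library. Some footprints of Pcdhgc3 in replicate 1 and of Pcdhgb6 in replicate 2 lay outside the peaks. Footprints, short protected stretches that the authors called at a value of 0.01, lay in the promoters of 4 members (7.02%) in replicate 1, all of them Pcdhg genes, against 58.6% of all genes. In replicate 2 they lay in 16 (28.1%), against 60.6% of all genes. The deposited cut rate track lists stretches under a false discovery rate of 0.05. In replicate 1 it reached 6 member promoters (10.5%), against 61.8% of all genes, and in replicate 2 it reached 24 (42.1%), against 64.0%.

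Replicate 2 also had more peaks in all, and stricter peak sets lowered the counts of members in both libraries. With the same number of strongest peaks in each library, 42295, promoter peaks remained at 1 member in replicate 1 and 3 in replicate 2, against 53.9% and 52.9% of all genes. In the shorter, stricter deposited lists 1 and 9 members had one, against 56.1% and 58.4% of all genes. That is a wider split in relative terms than the 6 and 23 of the longer lists. It rests on 1 member in replicate 1, Pcdhgc3, and the shorter lists still differed in size, with 51500 and 70031 peaks. The 1 and 3 members left with equal numbers of peaks were a narrower split. Promoter peaks of neuron markers stood at 6 of 7 genes in replicate 1 and 4 of 7 in replicate 2, against 60.9% and 63.1% of all genes. Their summed signals were 4.99 and 5.11. The highest was Snap25, a vesicle fusion protein, at 2.02 and 3.39, and Elavl3 had no peak in either library. Whether the cell makeup of the samples had a part in the split was not tested.

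Pcdhgc3 stood apart from all other members. This C-type gene, one of the few members that neurons use without random choice (gene ID ENSMUSG00000102918.1, start site chr18:37806410), carried a peak ending 10 bp past its start site in both libraries. The peak signal was 5.91 in replicate 1 (95% counting interval 5.48 to 6.37) and 5.19 in replicate 2 (4.78 to 5.62). These values ranked above 96.3% and 95.9% of all peaks of their libraries and above the median promoter signal of all genes with a peak, 4.08 and 4.36. A second peak of 0.750, centred 680.5 bp into the first exon, was called in replicate 1 alone and brought its promoter sum to 6.66. The promoter held 11 footprints in replicate 1 and 3 in replicate 2. The cut rate track covered 957 and 420 bases in all of the promoter window, which in replicate 1 also held the second peak. The main peak itself was 220 bp wide in replicate 1 and 240 bp wide in replicate 2. The next highest summed signal of a member promoter in either library was 1.11.

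The other C-type genes differed from Pcdhgc3 and from each other. Pcdhac2 had 3 weak peaks in replicate 1, of 0.367, 0.290 and 0.307, which lay between 67 bp before and 817 bp after its start site and summed to 0.964. In replicate 2 no peak was called there, but the cut rate track reached 29 bases. Pcdhac1 had 1 peak of 0.415 in replicate 2 and none in replicate 1. Pcdhgc4 and Pcdhgc5 had no promoter peak in either library. Only Pcdhgc3 of the 5 C-type genes thus had a promoter peak in both libraries, against 59.7% of all genes.

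**Figure D2:**
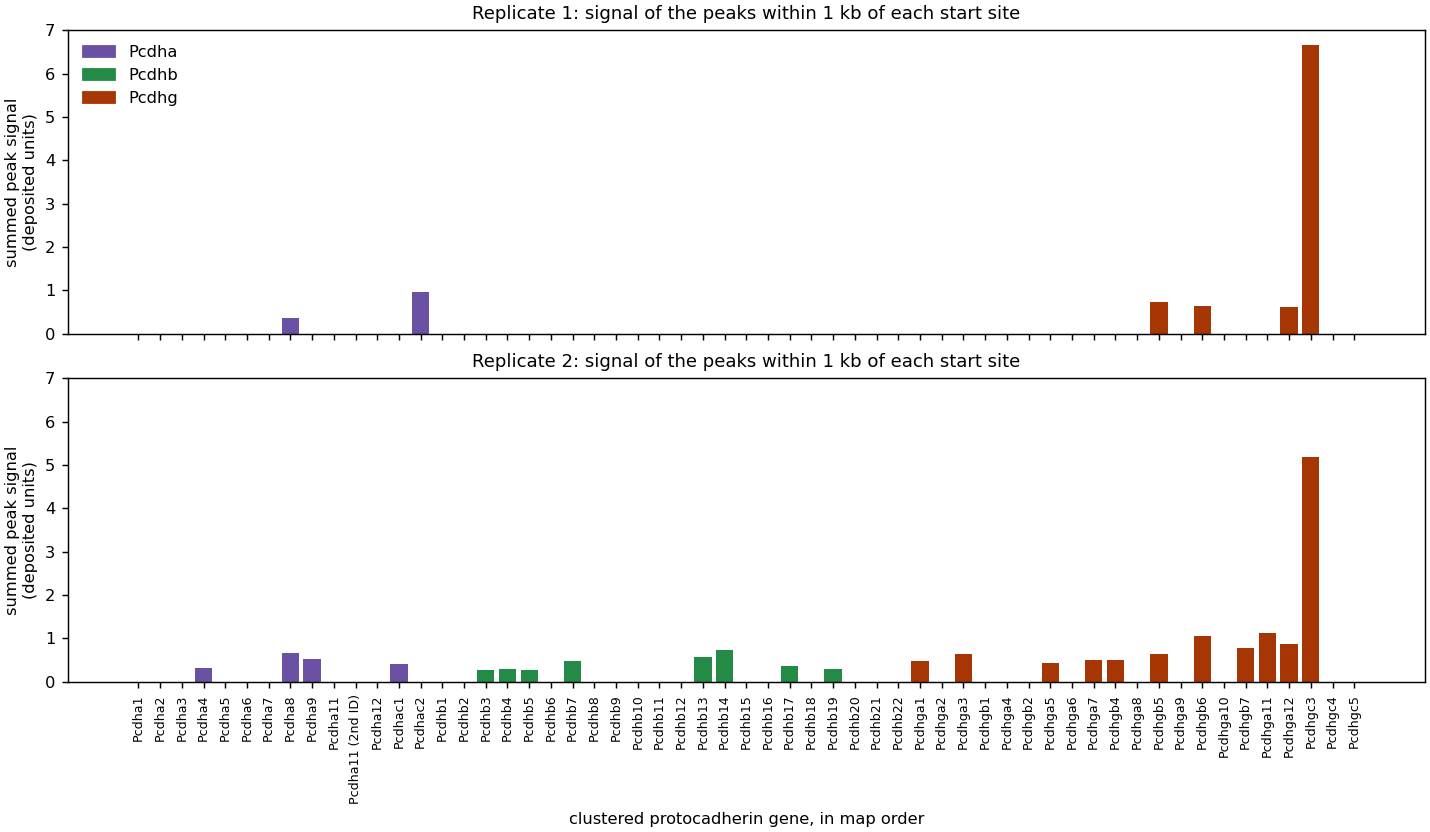
Summed signal (deposited units) of the peaks within 1 kb of the start site for each of the 57 genes in map order, replicate 1 above and replicate 2 below, coloured by family. Pcdhgc3 stands out at 6.66 and 5.19, and the low bars at Pcdhb and at many Pcdhg genes appear in replicate 2.

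The alternately chosen Pcdhg genes were called at more promoters in replicate 2 than in replicate 1. Peaks were called at 1 of 12 Pcdhga promoters in replicate 1 and at 6 in replicate 2, and at 2 and 4 of the 6 Pcdhgb promoters. The shares of all genes were 60.9% and 63.1%, so that the Pcdhgb count in replicate 2 was near that of all genes. Pcdhgb6 had 0.631 and 1.05, Pcdhgb5 0.725 and 0.645, and Pcdhga12 0.614 and 0.875 in replicates 1 and 2. These 3, next to Pcdhgc3, were the Pcdhg genes called in both libraries. Pcdhga11 reached 1.11 in replicate 2 (95% counting interval 0.928 to 1.33) and had no peak in replicate 1. The 6 further genes called in replicate 2 alone were Pcdhgb7 at 0.778, Pcdhga3 at 0.645, Pcdhgb4 at 0.513, Pcdhga7 at 0.495, Pcdhga1 at 0.468 and Pcdhga5 at 0.442. Toward the 3′ end of the array, from Pcdhgb6 to Pcdhga12, every gene but Pcdhga10 had a peak in replicate 2. Pcdhga2, Pcdhga4, Pcdhga6, Pcdhga8, Pcdhga9, Pcdhgb1 and Pcdhgb2 also had none in either library.

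Pcdhb promoters were called in replicate 2 alone. None of the 22 had a peak, a footprint or a base under the cut rate limit in replicate 1, whereas 8 (36.4%) had a peak in replicate 2. Of all genes, 60.9% and 63.1% had a peak in replicates 1 and 2, and 3.41% in replicate 2 alone. Their signals were low. Pcdhb14 had 0.725 in 2 peaks, Pcdhb13 0.566, Pcdhb7 0.477, Pcdhb17 0.362, Pcdhb4 0.292, Pcdhb19 0.283, Pcdhb3 0.274 and Pcdhb5 0.265. The median Pcdhb peak of 0.292 was a signal of 33 steps and ranked above 4.89% of all peaks of replicate 2, so most of these calls were close to the weakest in the list. The remaining 14 genes, Pcdhb1, Pcdhb2, Pcdhb6, Pcdhb8 to Pcdhb12, Pcdhb15, Pcdhb16, Pcdhb18 and Pcdhb20 to Pcdhb22, had no peak in either library.

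Among the 12 alternately chosen Pcdha genes, Pcdha8 was the 1 called in both libraries, against 59.7% of all genes. Its signal was 0.367 in replicate 1 (95% counting interval 0.265 to 0.494) and 0.663 in replicate 2 (0.521 to 0.831). Pcdha9 had 0.521 and Pcdha4 0.327 in replicate 2 alone. The peak of Pcdha4 also lay in the promoter of Gm42416, a gene annotated at the same place. Pcdha1, Pcdha2, Pcdha3, Pcdha5, Pcdha6, Pcdha7, both Pcdha11 IDs and Pcdha12 had none in either library.

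Signals of the 5 members with a peak in both libraries moved within the usual spread between replicates. Over the 70427 peaks shared by the libraries, the log2 ratio of replicate 2 over replicate 1 had a median of 0.14 and an SD of 0.50. Relative to that median the ratio was 0.71 at Pcdha8, 0.59 at Pcdhgb6, 0.37 at Pcdhga12, -0.31 at Pcdhgb5 and -0.33 at the main Pcdhgc3 peak. Thus 3 were higher and 2 lower in replicate 2, and none lay more than 2 SDs from the median. Members called in 1 library alone have no such ratio, so these values do not describe how far the libraries differed at them.

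Member promoters had a CpG ratio like that of other genes but a lower GC content. The ratio of observed to expected CpG in the promoter had a median of 0.483 over the members and 0.478 over all genes. It was 0.641 in Pcdha, 0.334 in Pcdhb and 0.513 in Pcdhg promoters, and GC content was 42.9% over the members, against 51.3% over all genes. Of the 15 members with a ratio of 0.6 or more, 3 had a peak in replicate 1 and 5 in replicate 2, against 95% and 95.6% of all genes in that class. Of the 29 members between 0.35 and 0.6, 3 and 15 had a peak, against 80.7% and 83.5%. Of the 13 below 0.35, 0 and 3 had one, against 17.5% and 20.7%. CpG-rich promoters over the whole genome thus nearly all carried a peak, whereas most CpG-rich member promoters had none, and the part of base composition in the calls was not tested.

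Near-identical copies can lose reads that map to several places, so the uniqueness of member promoters was computed. The share of 32-letter words that occur once in the genome was 97.6% at the median (range 78.7% to 100%) over the 24 members with a peak in either library. Over the 33 members without a peak it was 91.6% (range 73.7% to 100%). Near the start site, from 200 bp before to 100 bp after, the median was 100% in both sets. The lowest value among the members was that of Pcdha7, 73.7%, and Pcdha8, called in both libraries, had 78.7%. Read length and mapping filters were not given in the sources used here, and the part of mapping in the missing calls was not tested.

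Member peaks mostly lay on the start site in replicate 2, and replicate 1 held too few member peaks to compare. In replicate 2, 17 of the 24 member peaks, at 23 members, overlay it, with a median centre 31 bp upstream. Over all genes 37.1% of the promoter peaks did, but these were 26547 pairs of gene and peak at 13853 genes. As a rule only 1 peak of a promoter can overlie its start site. Shares of peaks are thus not comparable between members and all genes, whose promoters held more peaks each. In replicate 1, 3 of the 9 member peaks overlay the start site, at Pcdhac2, Pcdhgb5 and Pcdhgc3. The share over all genes was 41.3%, with the same limit. The 9 peaks lay at 6 members, with 3 at Pcdhac2 and 2 at Pcdhgc3, and their median centre was 333.5 bp downstream. At Pcdhgb6 the replicate 1 peak ended 20 bp short of the start site. Several of the peaks off the start site lay inside the first exon, and at Pcdhga12 and Pcdha8 they did so in both libraries. The peaks of Pcdhga12 were centred 333.5 and 331.5 bp into its first exon, and those of Pcdha8 441 and 509.5 bp into its first exon. The Pcdha4 peak was centred 576 bp into its first exon.

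The promoters share short runs of letters just upstream of the start site. These were chosen after the member sequences had been read, so that their frequency among members is a description. From 200 bp before to 20 bp after the start site, on the strand of the gene, TGGCGCT stood in 17 of 22 Pcdhb genes and in no Pcdha or Pcdhg gene, against 1.58% of all genes. In the same window CGCTGT stood in 18 of 21 Pcdhg genes, 6 of 14 Pcdha genes and 3 of 22 Pcdhb genes, against 4.26% of all genes. Counted together, 42 of 57 members (73.7%) had at least 1 of them, against 5.58% of all genes. The runs overlap in their last or first letters, CGCT, and had median positions of -55 bp in Pcdhb and -59 bp in Pcdhg genes, counting the first letter from the start site.

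Most calls in replicate 2 overlay these letters, but the letters did not separate called from uncalled members. At 17 of the 23 members with a peak in replicate 2 a run lay wholly inside the peak, and at 3 of 6 in replicate 1. Runs and most replicate 2 peaks both stood at the start site, so the overlap follows in part from their positions. It was not set beside a share for other genes. A replicate 2 footprint touched it at Pcdhb7, Pcdhga3, Pcdhga11 and Pcdhgb6, and no replicate 1 footprint touched it at any member. Of the 23 members with a peak in replicate 2, 18 (78.3%) had a run in the window, and of the 34 without, 24 (70.6%) did.

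A CTCF-like run of letters, AGNNGGCGC on either strand, was found in the promoter windows of 17 of 57 members (29.8%), against 27.1% of all genes. Over the 57 the share was thus near the background, but it was uneven between families, with 12 of 14 Pcdha, 3 of 22 Pcdhb and 2 of 21 Pcdhg genes. Its last letters, GGCGC, also stand in the shared run TGGCGCT. The matches upstream of the start sites of Pcdhac1, Pcdhb15 and Pcdhb16 overlapped a shared run. The matches and the shared runs are thus not separate features, and few matches do not show that a family lacks CTCF sites. In 10 Pcdha genes, all of them alternately chosen ones, it lay on the strand of the gene at 465 to 590 bp inside the first exon. Between 450 and 600 bp after the start site on that strand, a window set around these positions after they were seen, 1.39% of all genes had such a match, and no Pcdhb or Pcdhg gene did. The match stood inside the replicate 2 peaks of Pcdha4 and Pcdha8, and at Pcdha8 a replicate 2 footprint touched it. Pcdhac1 had a match 63 bp upstream of its start site, also inside its replicate 2 peak, and Pcdhac2 had one 154 bp downstream, on the opposite strand, inside a replicate 1 peak. That was the 1 match of a member inside a replicate 1 peak. The other 8 Pcdha exon matches, among them that of Pcdha9, lay in no peak of either library. With 1 more fixed letter, AGGNGGCGC, matches stood in 4 of 57 members (7.02%), against 13.2% of all genes. These were Pcdhac1, Pcdhac2, Pcdhb15 and Pcdhb16, so that none of the 10 exon matches met the stricter letters. A match gives letters and not a bound site.

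**Figure D3:**
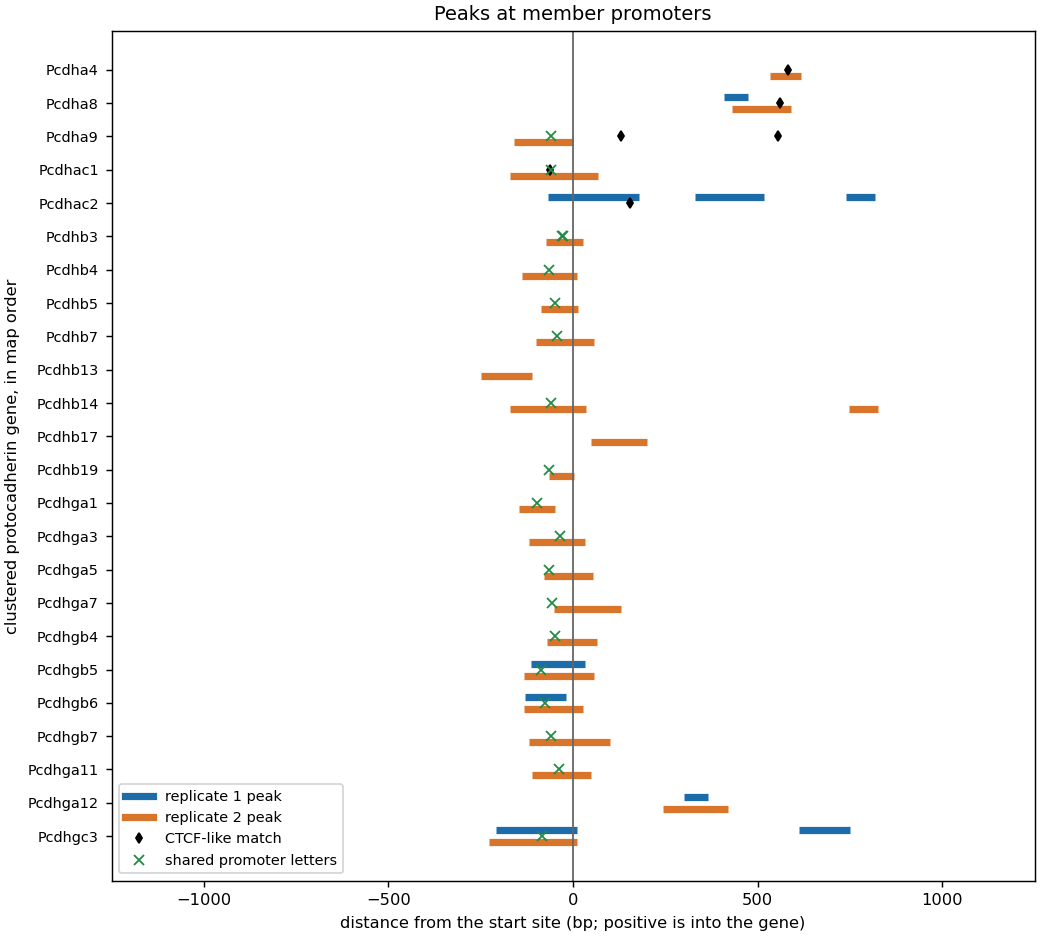
Extent of each peak (bp from the start site, positive into the gene) at the 24 members with a promoter peak, in map order; bars are replicate 1 and replicate 2 peaks, diamonds CTCF-like matches and crosses the shared promoter letters. Most replicate 2 peaks overlie the start site and the crosses, whereas the peaks of Pcdha4, Pcdha8 and Pcdhga12 lie inside the first exon.

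The spaces between the promoters held few peaks, and their number varied by stretch. The whole span had 18 peaks in replicate 1 and 38 in replicate 2, of which 9 and 24 lay in member promoters and 9 and 14 outside them. That is 0.197 and 0.417 peaks per 10 kb, against 0.335 and 0.444 over the autosomes. The 1 Mb before the span had 0.79 and 0.97 per 10 kb and the 1 Mb after it 0.89 and 1.13. Between the first and the last Pcdha start site, 213 kb, no peak lay outside a promoter in either library. Between the Pcdhb start sites, 260 kb, 0 and 1 did. The stretch of the Pcdhg constant exons, 22.4 kb long, held 3 peaks in each library, 1.34 per 10 kb.

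One distal peak stood alone between the Pcdha and Pcdhb genes. At chr18:37218281-37218460 both libraries called a peak of the same extent, with a signal of 2.30 in replicate 1 and 3.84 in replicate 2 and with 3 and 5 footprints. It lay 30.6 kb after the end of the Pcdha genes and 46.5 kb before the start of Pcdhb1, in no member gene but in introns of Gm42416, Gm37013 and Gm37388, long genes annotated across most of the cluster. Its mean of 3.07 ± 1.09 (SD, n = 2) was above that of every member promoter other than Pcdhgc3, and no other peak was called in that stretch of 77.3 kb. An enhancer of the Pcdha genes is known from brain between the Pcdha and Pcdhb genes, but whether this peak is that element was not tested. No CTCF-like letters lay in it.

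The peaks shared by the libraries in the rest of the span clustered toward its 3′ end. A peak of 0.665 and 0.839 lay 6.05 kb before the start site of Pcdhga1. In the stretch of the Pcdhg constant exons, peaks starting 3.04, 15.9 and 17.2 kb after the Pcdhgc5 start site had 1.51 and 2.12, 1.19 and 1.20, and 1.5 and 1.83. The strongest peak in the spaces belonged to a gene of another kind, Taf7, which encodes a subunit of the general transcription factor TFIID, and had 4.51 and 4.49. Of the 5 protein-coding genes that start inside the span and are not members, 1 and 2 had a promoter peak. These were Taf7 in both libraries and Gm42416, through the peak it shares with Pcdha4, in replicate 2. Gm37013, Gm37388 and Slc25a2 had none. Gm42416, Gm37013 and Gm37388 start inside the first exons of Pcdha4, Pcdha6 and Pcdha7, so they are not comparison genes apart from the cluster. At Pcdhgb8 3 peaks summing to 1.91 were called in replicate 2 and none in replicate 1. The members before it, Pcdhgb7 and Pcdhga11, were also called in replicate 2 alone, whereas the next member, Pcdhga12, was called in both libraries.

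**Figure D4:**
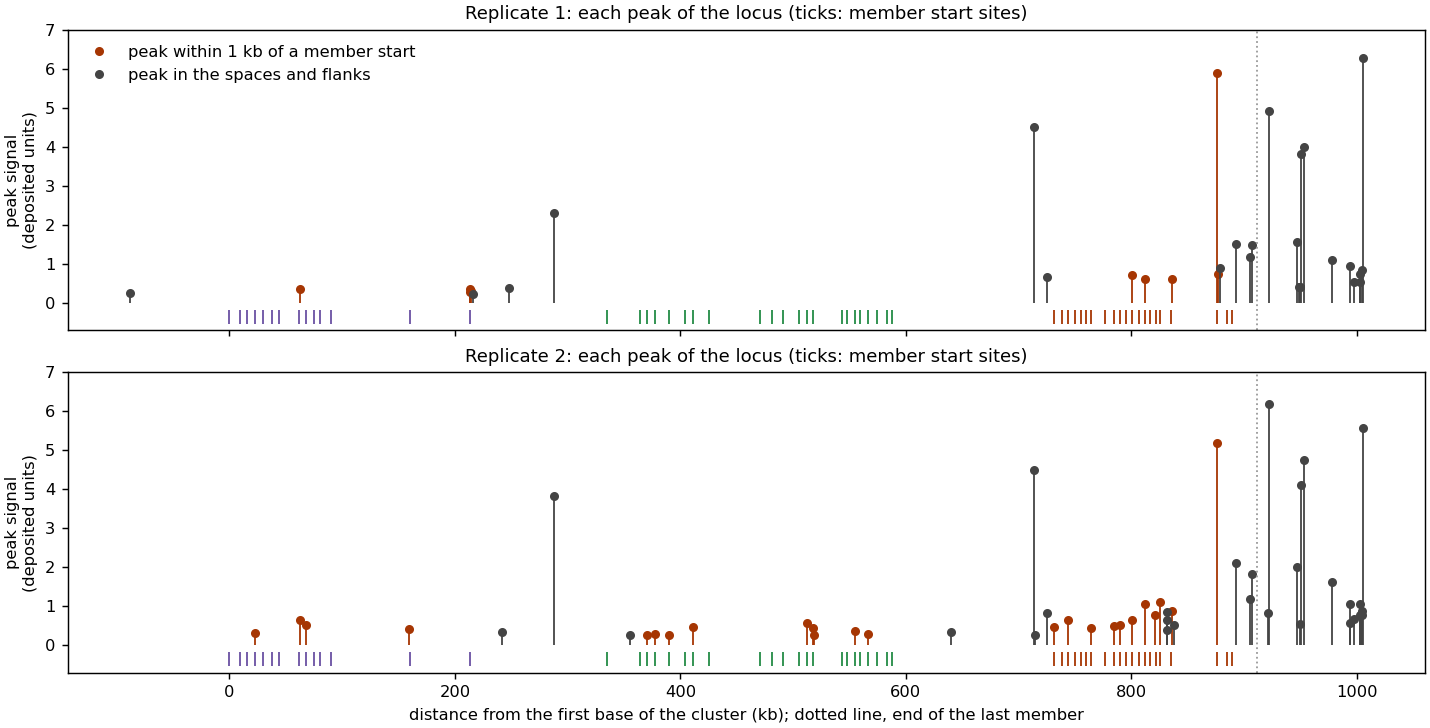
Signal (deposited units) of each peak against distance (kb) from the first base of the cluster, replicate 1 above and replicate 2 below; ticks mark member start sites by family and the dotted line the end of the last member. Low promoter peaks are more numerous in replicate 2, whereas the taller peaks, including the lone one at 2.30 and 3.84 between Pcdha and Pcdhb, stand in both libraries.

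Just past the cluster the density of peaks was higher. The next 100 kb held 14 and 15 peaks, all within Diaph1, a formin that nucleates actin filaments, against 1 and 0 in the 100 kb before the cluster. A peak 10.3 kb after the last member had 4.94 and 6.19 and a CTCF-like match on the minus strand. Further peaks in Diaph1 had 3.84 and 4.11 at 38.4 kb, and 4.02 and 4.75 at 41.7 kb. Enhancers of the Pcdhb and Pcdhg genes are known downstream of the cluster, and whether any of these peaks is one of them was not tested. Of the 5 nearest protein-coding genes before the cluster 4 had a promoter peak in both libraries. Zmat2 had 7.32 and 8.72, Hars and Hars2 shared peaks of 3.88 and 5.03, Wdr55 had 2.24 and 2.52, and Dnd1 had none. Of the 5 after it 4 and 5 had one. Diaph1 had 7.15 and 7.25, Rell2 6.32 and 7.64, Hdac3 6.32 and 6.74 and Fchsd1 5.69 and 7.16, and Arap3 had 0.733 in replicate 2 alone. The genes on either side of the cluster were thus mostly called in both libraries, unlike the genes inside it. Of all genes, 59.7% were called in both.

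Genes related to the members by family or by role were mostly called in both libraries too, as were 59.7% of all genes. Of 12 non-clustered protocadherins, which have promoters spread over the genome, 10 (83.3%) had a promoter peak in each library. The shares of all genes were 60.9% and 63.1%. Pcdh7 had 6.07 and 8.41, Pcdh17 5.53 and 5.36, Pcdh10 3.79 and 5.62, and Pcdh18 4.31 and 2.10. Pcdh20 was called in replicate 2 alone and Pcdh15 in replicate 1 alone, and Pcdh12 in neither. Of the 20 genes of proteins that regulate the cluster, all 20 had a peak in both libraries. Among them were Ctcf at 4.04 and 3.70, the cohesin genes Stag1 at 10.4 and 10.9 and Smc3 at 8.32 and 10.5, and the cohesin release factor Wapl at a mean of 9.53 ± 0.664 (SD, n = 2). Of 11 genes of partners of the protocadherin cytoplasmic domain, all 11 had one in both, led by Wasf1 at 6.17 and 7.41 and Wasf2 at 6.34 and 7.05, which encode WAVE proteins of actin assembly. Abi1 at 6.76 and 5.80, of the same complex, and Cyfip1 at 5.75 and 6.04 followed. Peaks also stood at promoters of other gene clusters. Of 39 Hox genes, which set body position, 24 and 23 had one (61.5% and 59.0%), near the 60.9% and 63.1% of all genes. Of 54 histone genes of chromosome 13, 45 (83.3%) had one in each library. The highest of the Hox and histone genes were Hoxa7 at 6.23 and 7.03 and Hist1h4h at 10.9 and 13.7. In all these lists the counts of the libraries differed by at most 1, against 6 and 23 for the clustered protocadherins.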

How the data were processed

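DNase-seq peaks, footprints and cut rates of 2 urinary bladder libraries were used as deposited, on mm10. The aligner and the peak caller were not given in the sources used here. Peak strength is the signal the authors deposited in each peak's line of the longer of 2 peak lists per library. The shorter lists, of which 98.9% of the peaks overlap the longer one in both libraries, served as an alternative. The cut rate files hold, as the authors deposited them, a p-value type number per stretch, a false discovery rate of at most 0.05, and the footprint files 1 such value of 0.01. Total reads per library were not given in the files used here, so the depth is unknown.

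Peaks were assigned to a promoter by an overlap of 1 bp with the 1000 bp on either side of the start site, with GENCODE M21 as annotation. CpG content, letter matches and the uniqueness of 32-letter words came from the GRCm38 genome, whose chromosome lengths hold every peak and gene end. Letters were searched with pysam 0.24.0 in Python 3.11.15, and numpy 2.4.6 gave medians and SDs. The overlap step was tested on planted peaks. With 2 libraries of 1 group, no test was run, and values are given per library. Alternatives were promoters of 500 bp and 2 kb, any annotated start site, the shorter lists, the strongest 42295 peaks of each library, peak centres, a 50% reciprocal overlap, a stricter motif and each library left out.

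The members and lists were chosen with earlier results of these data known. Named were every member, all genes flanking or inside the cluster, and of each comparison list the 4 genes of highest mean signal and up to 6 with none. The Hox and histone lists are given by their highest gene alone, and Ctcf, Pcdh15 and Pcdh20 were added after their values were seen. A few genes that this rule names are not reported here, and no member sequence is printed.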

Additional observations from a re-analysis of the deposited data

How the results depend on the processing

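Counts of members with a promoter peak, 14.5 as the mean of the libraries, were within 1.5 times of that with promoters of 500 bp or 2 kb, any annotated start site or peak centres. With the shorter lists, which hold fewer peaks, the mean was 5.0 members (0.5 Pcdha, 1.0 Pcdhb and 3.5 Pcdhg), their median signal 3.34, the peaks in the spaces 6.5 and the density 0.126 per 10 kb, against 3.0, 4.0, 7.5, 0.595, 11.5 and 0.307. With the strongest peaks, same number per library, these were 2.0 members (0.0, 0.0 and 2.0), 3.51, 5.5 and 0.0823. The median centred log2 ratio of 0.37 turned to -0.32 with the shorter lists, where 1 peak was left, and to -0.31 with a 50% reciprocal overlap, where 3 were. CTCF-like letters were found in 10 members with promoters of 500 bp and in 4 with 1 more fixed base, against 17. With 1 library left out at a time, the results ranged over 6 to 23 members (Pcdha 2 to 4, Pcdhb 0 to 8, Pcdhg 4 to 11), 4 to 16 members with a footprint, a median signal of 0.513 to 0.678, 9 to 14 peaks in the spaces and 0.197 to 0.417 peaks per 10 kb. The median member peak of replicate 2 held 55 steps and ranked above 25.4% of all its peaks, and a promoter with no peak called was not shown to be closed. No paired analysis was possible because the series holds 1 group.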
